A study of Mus musculus with 8 samples.

Results

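The collagen genes of the mouse heart were followed in inflamed hearts of mice injected with VEGF-C C156S or with PBS. The members were the rows of the deposited gene table whose symbol has the form Col, number, a, number, one for each collagen chain. The table held 44 such rows, of which 42 carried values, among 18835 genes with values. Col10a1 and Col19a1 were the rows without values. By the kind of structure the chains build, 11 of the 42 genes were fibrillar, 8 belonged to basement membranes, and 23 were of other kinds.

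The hearts sequenced came from 8 male mice of the strain BALB/cAJcl, aged 10 weeks. All 8 had been immunized with cardiac myosin, which sets off an autoimmune myocarditis, controls included, and no unimmunized heart was used here. From day 7 to day 10 after immunization, 4 of the mice received 1 µg per day of VEGF-C C156S, a lymphatic growth factor with an exchanged cysteine, by intraperitoneal injection, and 4 received PBS on the same days. The hearts were taken at week 3, after the injections had ended. The series title speaks of lymphatic endothelial cells, whereas the sample labels give heart, and the marker genes measured were those of a mixed tissue: the 8 cardiomyocyte markers summed to 3326936 to 3610719 normalized counts in VEGF-C hearts and to 2401073 to 3252489 in PBS hearts, and the 7 lymphatic markers to 16581 to 30135 in VEGF-C hearts and to 14653 to 23085 in PBS hearts.

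Collagens are rods of chains wound around each other, and each chain has its own gene. Fibrillar collagens line up into the banded fibres that give the heart wall its tensile strength and that fibroblasts lay down after injury. Type IV collagen forms a sheet-like mesh in the basement membranes under endothelium and around muscle cells. The remaining kinds decorate fibrils, form beaded microfilaments or anchoring fibrils, build short-chain networks, or span the cell membrane.

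Depth was 53.7 to 65.2 M gene-assigned reads in VEGF-C libraries and 61.7 to 76.8 M in PBS libraries. Values are normalized counts, that is, reads divided by 1 factor per library, and after this scaling the totals were 69.0 to 69.7 M in VEGF-C and 58.2 to 62.2 M in PBS libraries. PBS 1 stood apart from the other libraries, at 56.8 on the second principal component against -25.6 to 5.82 for the rest. Library numbers are those of the table's columns. They tie a column to a group and not to a named animal, and nothing in the labels says more about how replicates were raised, so p-values measure the spread between these 8 libraries.

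Of the 42 collagen genes, 8 passed an adjusted p of 0.05 in limma, against 15.7% of all 18835 genes, so that their share of 19.0% lay near that of the whole table. By direction, Col1a1 was the 1 gene that rose, where 7.05% of all genes rose, and 7 genes fell, where 8.61% of all genes fell. The 7 were Col11a2, Col24a1 and Col27a1 of the fibrillar class, and Col20a1, Col7a1, Col6a4 and Col6a6 of the other kinds. The median log2 fold change was -0.06 over the 42 collagens and 0.00 over all genes; by class it was -0.01 for fibrillar, 0.09 for basement membrane and -0.28 for other collagens. Without PBS 1, 12 collagen genes passed, 1 higher and 11 lower, and over all 18835 genes 2906 passed, 1268 higher and 1638 lower. With counts scaled by library totals in place of the deposited factors, 11 passed, 1 higher and 10 lower; that scaling moved the median of all genes by -0.19 on the log2 scale, and the genes called over the whole table became 243 higher and 3572 lower, against 1328 higher and 1621 lower as deposited. In heart tissue measured whole, fewer cells of a type and less RNA per cell cannot be told apart.

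**Figure D1:**
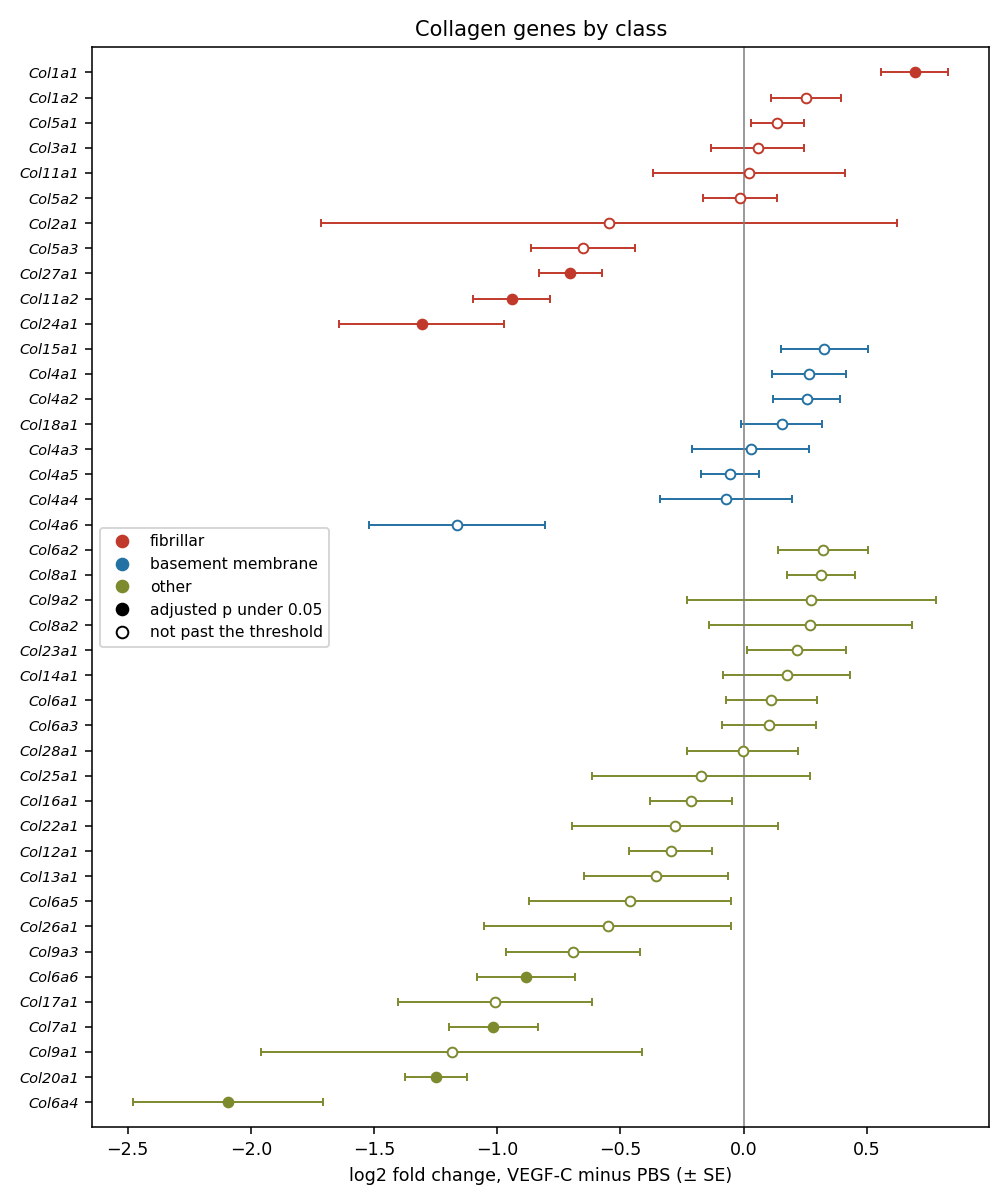
Log2 fold change (VEGF-C minus PBS, x axis) of the 42 collagen genes with their standard errors, grouped by class and ordered by size, 4 libraries a group. Filled points passed an adjusted p of 0.05; Col1a1 at 0.69 is the filled point right of 0, and the other 7 filled points lie left of it, down to Col6a4 at -2.09.

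Col1a1, the major chain of type I collagen, was the collagen that rose. It had 232004, 207201, 241279 and 254404 normalized counts in VEGF-C hearts 1 to 4, against 122676, 164445, 145070 and 146928 in PBS hearts 1 to 4. Every VEGF-C heart lay above every PBS heart. The means were 233722 ± 19926 in VEGF-C and 144780 ± 17127 in PBS hearts (SD, n = 4 each), a 1.62-fold difference with a 95% interval of 1.31 to 1.996 (log2 fold change 0.69 ± 0.14 SE, limma adjusted p = 0.00926). With library totals the log2 fold change was 0.50 and still passed, with an adjusted p of 0.027.

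Col1a2 encodes the other chain of the same type I molecule, and its groups overlapped. Its values were 162613, 181183, 179673 and 195048 normalized counts in VEGF-C hearts and 118397, 168394, 155816 and 164660 in PBS hearts. PBS 1 was the low library, and VEGF-C 1 lay below 2 of the PBS hearts. The fold was 1.19 with a 95% interval of 0.955 to 1.49 (log2 fold change 0.25 ± 0.14 SE, limma adjusted p = 0.251). Col3a1, the chain of type III collagen that is built into the same fibres, had 372020, 340994, 368079 and 461590 normalized counts in VEGF-C hearts and 279387, 393934, 386480 and 432035 in PBS hearts. The ranges lay over each other, with a fold of 1.04 and an interval of 0.777 to 1.39 (limma adjusted p = 0.864).

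The shift between these chains was also read as ratios within a library, which no scaling factor can alter. The log2 ratio of Col1a1 to Col1a2 counts was 0.51, 0.19, 0.43 and 0.38 in VEGF-C hearts, against 0.05, -0.03, -0.10 and -0.16 in PBS hearts. All VEGF-C hearts lay above all PBS hearts, and the ratio of the counts themselves was 1.30 ± 0.119 in VEGF-C and 0.959 ± 0.0619 in PBS hearts (SD, n = 4 each). Against Col3a1, the log2 ratio of Col1a1 was -0.68, -0.72, -0.61 and -0.86 in VEGF-C hearts and -1.19, -1.26, -1.41 and -1.56 in PBS hearts, again without overlap. The differences of the mean log2 ratios were 0.44 and 0.64. Each had a two-sided exact permutation p of 0.0286, the smallest that 4 against 4 libraries can give, or 0.0429 adjusted over the 3 ratios compared. Both ratios share Col1a1, which passed in limma in the same libraries. They are thus not independent of that call or of each other. The third ratio was that of Col4a1 to Col4a2, given below with those genes.

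**Figure D2:**
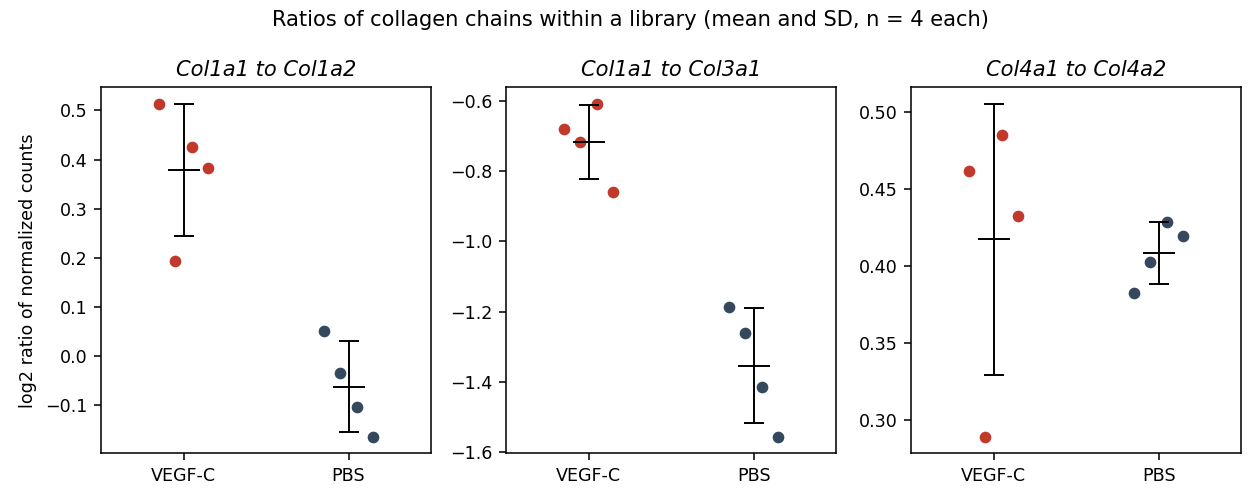
Log2 ratio of normalized counts (y axis) of Col1a1 to Col1a2, Col1a1 to Col3a1 and Col4a1 to Col4a2 in each library, VEGF-C left and PBS right, with the mean and SD of 4 libraries. The groups do not overlap in the first and second panel, with differences of 0.44 and 0.64, and overlap in the third, with a difference of 0.01; the y axes differ in range.

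Type V collagen sits in the core of type I fibres and limits their width, and none of its 3 chains passed in limma. Col5a1 had 25608, 21738, 29979 and 28776 normalized counts in VEGF-C hearts and 24617, 24631, 21847 and 24781 in PBS hearts (log2 fold change 0.14 ± 0.11 SE, limma adjusted p = 0.408). Col5a2 had 22243, 28546, 28296 and 26302 in VEGF-C hearts and 19247, 28074, 29221 and 31135 in PBS hearts (log2 fold change -0.01 ± 0.15 SE, limma adjusted p = 0.960). Both overlapped between the groups. Col5a3, the least abundant chain of the type per transcript length, had 3205, 1764, 3437 and 3267 normalized counts in VEGF-C hearts and 4262, 4932, 3446 and 5337 in PBS hearts. Its groups did not overlap, although VEGF-C 3 and PBS 3 nearly met, and its log2 fold change of -0.65 ± 0.21 SE missed the threshold (limma adjusted p = 0.0616). It passed with library totals (0.0184) and with upper-quartile factors (0.0457).

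Among the scarcer fibrillar chains, Col11a2, Col27a1 and Col24a1 fell. Col11a2, a chain of the type XI collagen best known from cartilage, had 265, 225, 314 and 336 normalized counts in VEGF-C hearts and 469, 547, 512 and 669 in PBS hearts. Its VEGF-C values all lay below its PBS values, with a fold of 0.521 and a 95% interval of 0.409 to 0.663 (log2 fold change -0.94 ± 0.16 SE, limma adjusted p = 0.00459). Col27a1, a chain of a fibrillar collagen with a role in cartilage, had 753, 705, 940 and 729 normalized counts in VEGF-C hearts and 1380, 1408, 1026 and 1296 in PBS hearts. The groups stood apart here too (log2 fold change -0.70 ± 0.13 SE, limma adjusted p = 0.00656).

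Col24a1 is a fibrillar chain known from bone. It had 93.3, 65.0, 82.9 and 66.3 normalized counts in VEGF-C hearts and 107, 397, 172 and 193 in PBS hearts. PBS 2 was the high library and PBS 1 lay just above the VEGF-C hearts, without overlap (log2 fold change -1.31 ± 0.34 SE, limma adjusted p = 0.0276). Its call was lost with limma-voom on the recovered reads (adjusted p = 0.0645). It was also lost without VEGF-C 2 (0.0641), VEGF-C 3 (0.0577), VEGF-C 4 (0.0654), PBS 3 (0.0542) or PBS 4 (0.057).

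Of the last fibrillar chains, neither passed. Col11a1 had 1248, 4162, 1295 and 997 normalized counts in VEGF-C hearts and 1059, 1655, 1850 and 1947 in PBS hearts, so that VEGF-C 2 was the highest of all and the other VEGF-C hearts lay among or below the PBS hearts (log2 fold change 0.02 ± 0.39 SE, limma adjusted p = 0.976). Col2a1, the main collagen of cartilage, ran over 4.48 to 169 normalized counts in VEGF-C hearts and 13.0 to 553 in PBS hearts (limma adjusted p = 0.785).

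**Figure D3:**
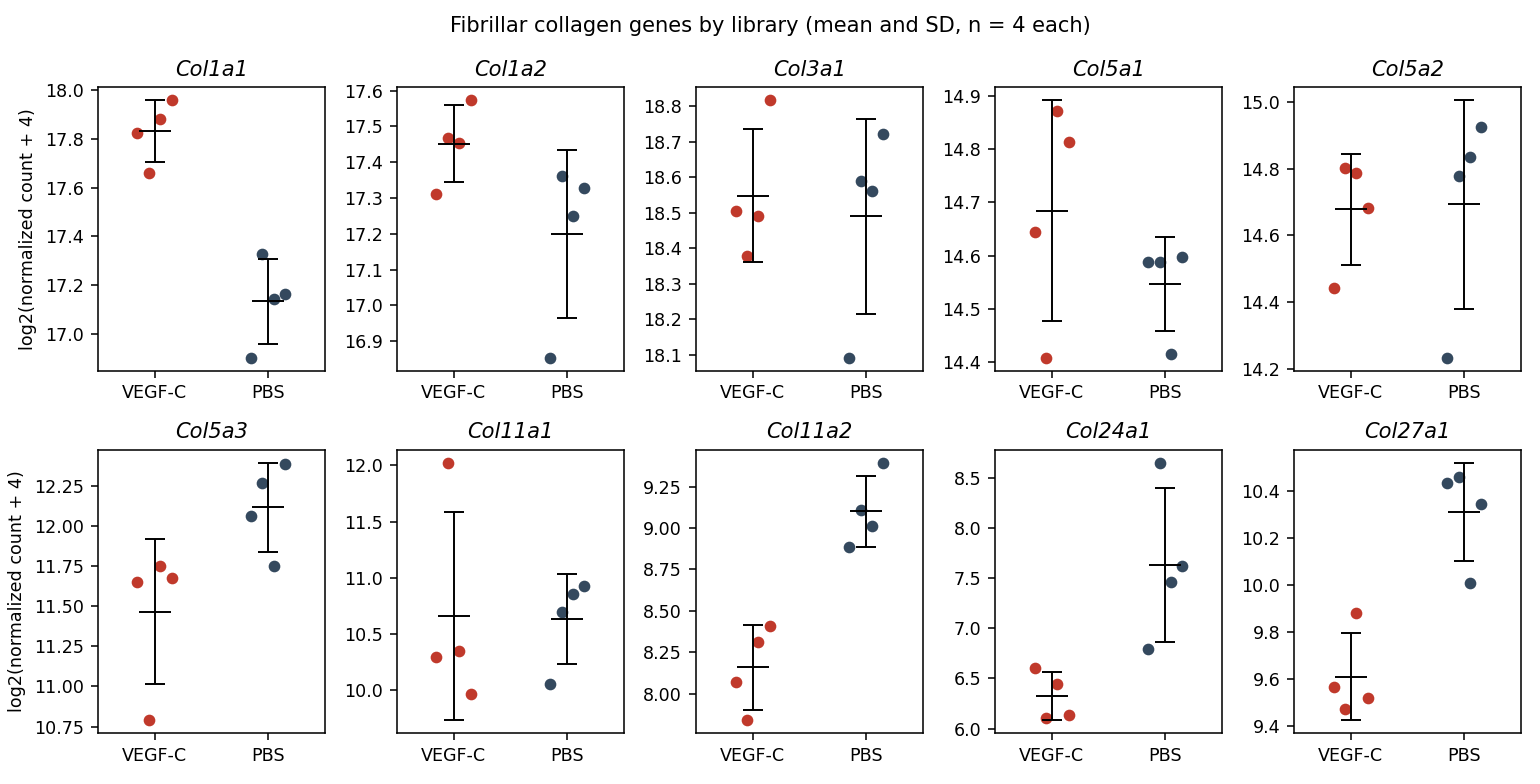
Log2(normalized count + 4) of 10 of the 11 fibrillar collagen genes in each library (y axes differ between panels), VEGF-C left and PBS right, with the mean and SD of 4 libraries; Col2a1 is left out. VEGF-C points lie above PBS points for Col1a1 and below them for Col5a3, Col11a2, Col24a1 and Col27a1.

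Basement membrane collagens showed no gene past the threshold in limma: 0 of 8 passed, where 15.7% of all genes passed. Of the 8, 1 had an unadjusted p under 0.05, and limma-voom also called 0. Over all 18835 genes, 6086 had an unadjusted p under 0.05, and limma-voom called 2784. The main type IV chains, Col4a1 and Col4a2, are encoded head to head and wind into 1 molecule. Col4a1 had 84838, 65451, 91173 and 69098 normalized counts in VEGF-C hearts and 67130, 68948, 50263 and 72134 in PBS hearts. Col4a2 had 61600, 53570, 65125 and 51201 in VEGF-C hearts and 51491, 52150, 37348 and 53930 in PBS hearts. In both genes VEGF-C 1 and 3 were high, PBS 3 was low, and the rest overlapped. The log2 fold change was 0.26 ± 0.15 SE for Col4a1 and 0.26 ± 0.14 SE for Col4a2 (limma adjusted p = 0.249 and 0.221). Exons of the genes overlap on opposite strands, over 0.295% of the exon bases of Col4a1.

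The proportion of the pair was also read within each library. The log2 ratio of Col4a1 to Col4a2 was 0.46, 0.29, 0.49 and 0.43 in VEGF-C hearts and 0.38, 0.40, 0.43 and 0.42 in PBS hearts. The count ratio was 1.34 ± 0.0796 in VEGF-C and 1.33 ± 0.0185 in PBS hearts (SD, n = 4 each), a difference of 0.01 in the mean log2 ratio (exact permutation p = 0.886, two-sided). VEGF-C 2, at 0.29, was the library furthest from the others.

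The promoter windows of this gene pair are shown because the genes start next to each other on opposite strands. They are from RefSeq on GRCm38.p6, 300 bases each, with 250 before and 50 after the annotated start. Capitals mark CCAAT (the CCAAT box) and GGGCGG (the GC box), searched on both strands, so that ATTGG and CCGCCC are the same motifs on the other strand. The Col4a1 window lies at chr8:11312777-11313076 on the minus strand and the Col4a2 window at chr8:11312555-11312854 on the plus strand; the annotated starts are 21 bases apart and the windows share 78 bases.
Col4a1: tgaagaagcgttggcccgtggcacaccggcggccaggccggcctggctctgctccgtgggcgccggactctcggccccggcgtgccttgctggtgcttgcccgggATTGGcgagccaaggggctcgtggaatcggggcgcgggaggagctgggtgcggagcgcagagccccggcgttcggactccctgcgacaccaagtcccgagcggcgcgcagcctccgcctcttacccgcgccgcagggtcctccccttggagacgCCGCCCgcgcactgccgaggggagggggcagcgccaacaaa
Col4a2: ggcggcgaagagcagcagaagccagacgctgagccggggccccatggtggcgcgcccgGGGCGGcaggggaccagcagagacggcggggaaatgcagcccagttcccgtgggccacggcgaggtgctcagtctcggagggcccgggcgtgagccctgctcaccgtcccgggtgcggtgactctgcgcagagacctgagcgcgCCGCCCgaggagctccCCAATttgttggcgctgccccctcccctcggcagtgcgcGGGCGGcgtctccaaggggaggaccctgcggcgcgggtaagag

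The Col4a1 window held 1 CCAAT and 1 GGGCGG, and the Col4a2 window held 1 CCAAT and 3 GGGCGG; neither held TATAAA, the TATA box. Among 36 windows of the 33 collagen genes found in the RefSeq table, GGGCGG stood in 23, or 63.9%, against 35.7% of 32851 windows of all genes. CCAAT stood in 13 of the 36, or 36.1%, against 37.4% of all windows, and TATAAA in 4, or 11.1%, against 13.6%. Within either window no match overlapped another, but the GGGCGG of the Col4a1 window and the last GGGCGG of the Col4a2 window are the same bases of the shared stretch, read on opposite strands. A match describes these letters and not a bound factor.

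Of the minor type IV chains, Col4a3, Col4a4 and Col4a5 had log2 fold changes of 0.03 ± 0.24, -0.07 ± 0.27 and -0.06 ± 0.12 SE (limma adjusted p = 0.947, 0.882 and 0.778). Col4a6, an X-linked chain of smooth muscle and epithelial basement membranes, had 8.48, 10.4, 22.4 and 13.3 normalized counts in VEGF-C hearts and 17.9, 41.1, 42.0 and 41.3 in PBS hearts. PBS 1 lay inside the VEGF-C range, and the log2 fold change of -1.16 ± 0.36 SE had a limma adjusted p of 0.0522. Col4a6 passed without PBS 1 (log2 fold change -1.43, adjusted p = 0.0223), without VEGF-C 3 (0.0478), with library totals (0.0285) and with upper-quartile factors (0.0486).

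Col15a1 and Col18a1 encode the multiplexins, basement membrane collagens that carry sugar side chains; the end of Col18a1 is the source of endostatin. Col15a1 had 21127, 14613, 24493 and 18262 normalized counts in VEGF-C hearts and 14568, 19449, 11880 and 16531 in PBS hearts. Col18a1 had 7575, 5352, 6042 and 5191 normalized counts in VEGF-C hearts and 3854, 5910, 5932 and 6132 in PBS hearts. Both overlapped between groups, with log2 fold changes of 0.33 ± 0.18 and 0.15 ± 0.16 SE (limma adjusted p = 0.230 and 0.552).

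Among the other collagens, 4 of 23 fell and 0 rose in limma. The share that fell was 17.4%, where 8.61% of all genes fell and 7.05% rose. Of the 23, 7 had an unadjusted p under 0.05, against 6086 of all 18835 genes. Limma-voom called 4 of the 23, against 2784 of all genes. Col20a1, a fibril-associated collagen, gave the smallest p of the 42 genes. It had 200, 255, 259 and 288 normalized counts in VEGF-C hearts and 587, 603, 566 and 631 in PBS hearts. Its highest VEGF-C heart was far below its lowest PBS heart. The means were 251 ± 36.7 in VEGF-C and 596 ± 27.3 in PBS hearts (SD, n = 4 each), with a fold of 0.421 and a 95% interval of 0.347 to 0.511 (log2 fold change -1.25 ± 0.13 SE, limma adjusted p = 0.000373).

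Col7a1, the collagen of the anchoring fibrils that fasten skin to its underlying tissue, had 128, 192, 133 and 164 normalized counts in VEGF-C hearts and 290, 338, 384 and 251 in PBS hearts. No VEGF-C heart reached a PBS heart (fold 0.495, log2 fold change -1.02 ± 0.18 SE, limma adjusted p = 0.0061). The exons of Col20a1 overlap another gene of the same strand over 1.54% of their bases and those of Col7a1 over 0.35%, in the GENCODE annotation.

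Type VI collagen forms beaded microfilaments around cells, and its genes split by chain. The long-known chains were abundant and overlapped between groups. Col6a1 had 18437, 14856, 22799 and 22521 normalized counts in VEGF-C hearts and 13786, 22241, 15305 and 21902 in PBS hearts. Col6a2 had 18481, 15732, 22830 and 20724 in VEGF-C hearts and 12109, 19609, 12312 and 19302 in PBS hearts. In both, PBS 1, PBS 3 and VEGF-C 2 were the lowest libraries and VEGF-C 3 was the highest. Col6a3 had 7879, 5779, 10392 and 10116 normalized counts in VEGF-C hearts and 7358, 8936, 6054 and 9064 in PBS hearts. The log2 fold changes of these 3 genes were 0.11 ± 0.19, 0.32 ± 0.18 and 0.10 ± 0.19 SE (limma adjusted p = 0.712, 0.251 and 0.752).

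Of the chains that can take the place of Col6a3, Col6a4 and Col6a6 fell. Col6a4 had 10.6, 50.7, 24.6 and 15.5 normalized counts in VEGF-C hearts and 84.6, 132, 86.7 and 130 in PBS hearts. All VEGF-C hearts were below all PBS hearts, and its fold of 0.235, with a 95% interval of 0.13 to 0.425, was the lowest of the 42 genes (log2 fold change -2.09 ± 0.39 SE, limma adjusted p = 0.00713). Its exons overlap genes of the opposite strand over 3.39% of their bases, and whether the counting used strand was not stated.

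Col6a6 had 1697, 1868, 1780 and 1611 normalized counts in VEGF-C hearts and 2171, 4800, 3577 and 2837 in PBS hearts. The VEGF-C hearts were close together, at 1739 ± 110, and the PBS hearts scattered, at 3346 ± 1126 (SD, n = 4 each), without overlap (fold 0.542, log2 fold change -0.88 ± 0.20 SE, limma adjusted p = 0.0161). Col6a5 had 2507, 4573, 2233 and 2561 normalized counts in VEGF-C hearts and 1498, 6958, 4780 and 4704 in PBS hearts. PBS 1 was the lowest of its 8 libraries and the other PBS hearts the highest (log2 fold change -0.46 ± 0.41 SE, limma adjusted p = 0.473). Without PBS 1 the log2 fold change of Col6a5 was -0.92 and passed (adjusted p = 0.0256).

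The 34 collagen genes that missed the threshold had log2 fold changes from -1.18 to 0.33. At the low end were Col9a1 at -1.18 (limma adjusted p = 0.319), Col17a1 at -1.01 (0.106) and Col9a3 at -0.69 (0.109). Col9a1 and Col9a3 are chains of type IX collagen, which coats cartilage fibrils, and Col17a1 is a collagen of the epithelial cell membrane. Col9a1 had no read in PBS 1, which allows up to 2.44 normalized counts, and passed without that library (log2 fold change -2.11, adjusted p = 0.00478). Col16a1, a fibril-associated collagen, also passed without PBS 1 (adjusted p = 0.0183). Col17a1 and Col9a3 passed without VEGF-C 4 (adjusted p = 0.0422 and 0.0475), and Col9a3 with library totals (0.046). Col8a1, a short-chain collagen of vessel walls, was at 0.31 on the same scale (0.146). The rest missed the threshold as well, with log2 fold changes in parentheses: among fibril-associated collagens Col12a1 (-0.30), Col22a1 (-0.28), Col14a1 (0.18) and Col9a2 (0.28), among those that span the cell membrane Col13a1 (-0.36), Col25a1 (-0.17) and Col23a1 (0.22), and of other kinds Col26a1 (-0.55), Col28a1 (-0.00) and Col8a2 (0.27). Exons of Col4a3 and Col9a3 overlap genes of the opposite strand over 5.65% and 6.07% of their bases.

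The groups did not overlap for 9 of the 42 genes, 1 higher and 8 lower in VEGF-C hearts: the 8 that passed and Col5a3. Over all genes 23.0% had no overlap, 11.5% higher and 11.6% lower. In the authors' deposited table, an adjusted p under 0.05 was given for 10 of the 42 collagen genes, 1 higher and 9 lower. It was given for 4075 of the 18835 genes with values. The 8 collagen genes found here were among the 10.

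The direction of the collagen fold changes varied with level, as it did over the whole table, although collagens and all genes differed at middle levels. Of the 16 collagen genes with a mean log2(normalized count + 4) of 12 or more, 13 had a positive log2 fold change and 1 rose; of the 14 under 8, 2 had a positive log2 fold change and 3 fell, and of the 12 in between, 3 had a positive log2 fold change and 4 fell. The median log2 fold changes in these bands, from low to high level, were -0.62, -0.38 and 0.16 for the collagens and -0.24, 0.03 and 0.18 for all genes. Over all genes, 10.8% of the lowest band fell and 0.602% rose, while 2.87% of the highest band fell and 22.5% rose. In the middle band 8.77% of all genes fell and 6.98% rose, where 33.3% of the collagens fell and 0 rose. Positive log2 fold changes over all genes numbered 1914 of 6482, 5329 of 9604 and 2210 of 2749, from low to high level. With library totals, 8 of the collagen genes with positive log2 fold changes had negative ones. The 7 collagens that fell had mean log2 levels of 5.74 to 11.2. The part of the level in the collagen results was not tested.

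**Figure D4:**
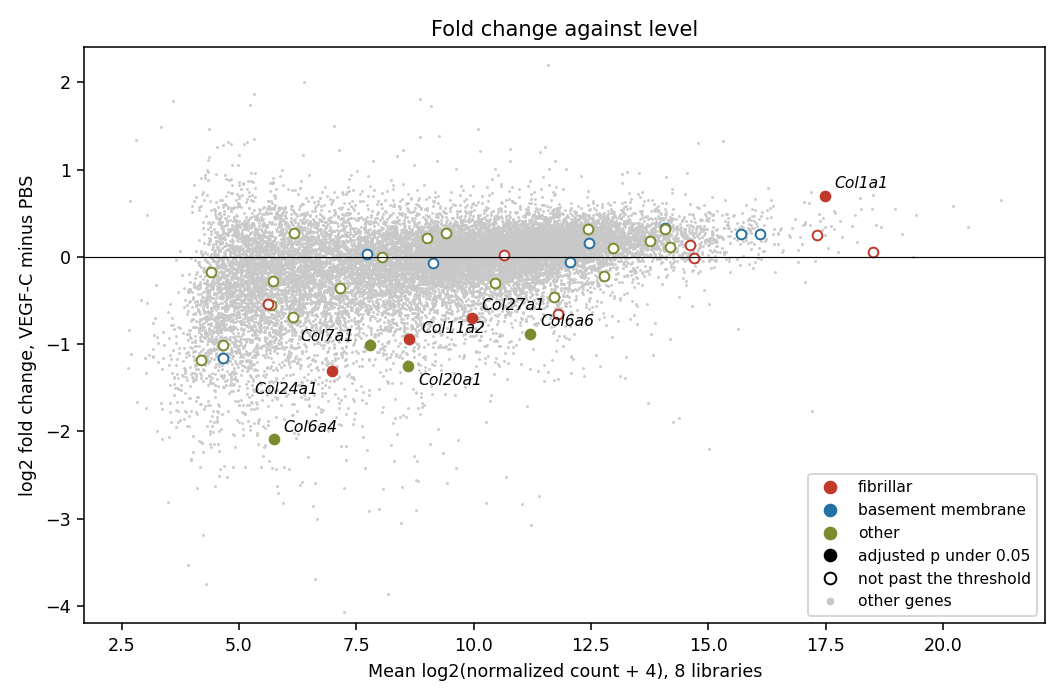
Log2 fold change (VEGF-C minus PBS, y axis) against the mean log2(normalized count + 4) over 8 libraries (x axis), for 42 collagen genes by class (large points, filled where adjusted p was under 0.05) and all other genes (grey). Col1a1 is the filled point at the right above 0, and the 7 filled points below 0 lie at levels of 5.74 to 11.2; the cloud of all genes tilts upward with level.

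Counted per transcript length, so that genes can be set beside each other, a handful of chains made up most collagen RNA. Col3a1, Col1a1, Col1a2, Col4a1 and Col4a2 together held 84.4% of the collagen transcripts in VEGF-C hearts and 82.9% in PBS hearts. The share of Col1a1 was 20.90%, 19.98%, 20.44% and 20.24% in VEGF-C hearts 1 to 4, against 15.49%, 15.31%, 15.05% and 13.37% in PBS hearts. The share of Col3a1 was 35.8% ± 2.47 in VEGF-C and 40.3% ± 2.39 in PBS hearts (SD, n = 4 each), and that of Col1a2 was 17.4% ± 1.36 in VEGF-C and 17.1% ± 0.65 in PBS hearts. Each VEGF-C heart thus held a larger share of Col1a1 than each PBS heart, while the shares of Col3a1 overlapped. The 7 chains that fell were rare: together they made up 0.223% ± 0.0202 of collagen transcripts in VEGF-C hearts and 0.506% ± 0.0607 in PBS hearts. All collagens summed to 1003351 to 1210331 normalized counts in VEGF-C hearts and 770997 to 1059772 in PBS hearts, with a ratio of the means of 1.17. Per transcript length, scaled to the same total in each library, the sums were 4601 to 5972 in VEGF-C and 4105 to 5739 in PBS hearts. The ratio of the means was then 1.02, and the ranges overlapped on both scales.

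**Figure D5:**
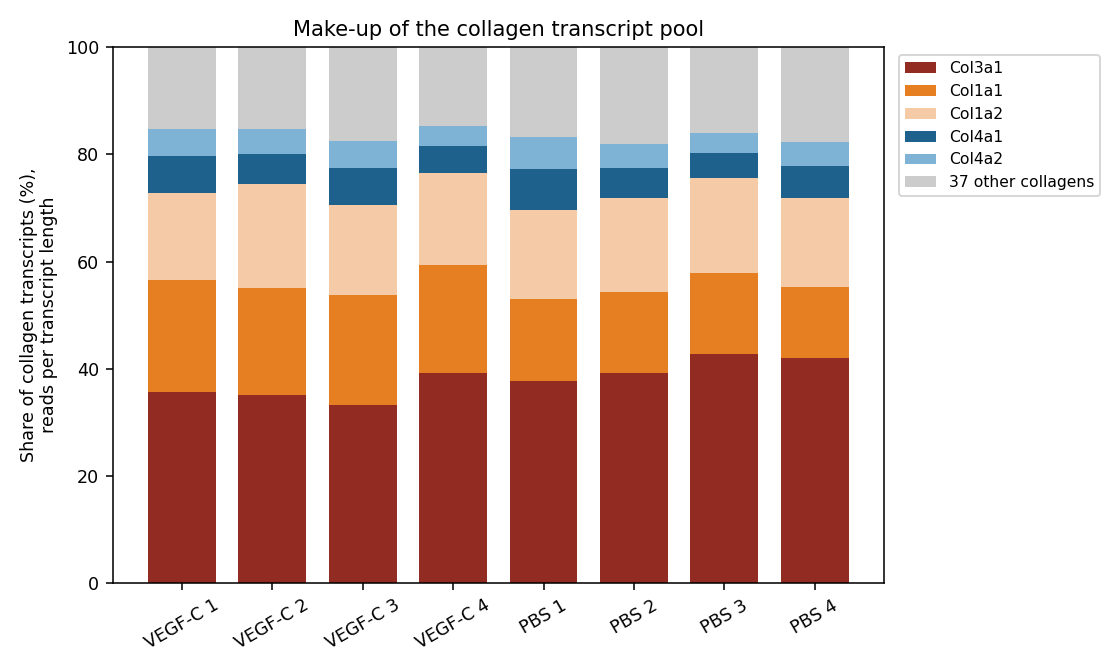
Share of collagen transcripts (%, y axis, reads per transcript length) held by the 5 most abundant chains and by the other 37 genes, in each VEGF-C and PBS library. The orange band of Col1a1 is 19.98% to 20.90% in VEGF-C hearts and 13.37% to 15.49% in PBS hearts.

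Genes that make, ship, assemble, bind and break down collagen were read as 8 lists with 94 measured genes. Of these, 9 rose (9.57%) and 3 fell (3.19%), together 12.8%. Over all genes 7.05% rose and 8.61% fell, together 15.7%. The median log2 fold change of the 94 genes was 0.13. With library totals the count was 3 higher and 12 lower. Without VEGF-C 1 or without VEGF-C 3, 7 of the 94 passed.

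Among 15 genes of collagen hydroxylation and glycosylation, 4 rose (26.7%, against 7.05% of all genes). They were P4ha1 and P4ha2, catalytic subunits of prolyl hydroxylase, Plod1, a lysyl hydroxylase, and P3h2, another prolyl hydroxylase. P4ha1 had 6187 ± 921 normalized counts in VEGF-C and 4350 ± 549 in PBS hearts (SD, n = 4 each; log2 fold change 0.51, limma adjusted p = 0.0198). Plod1 had a log2 fold change of 0.34 (0.0245), P3h2 of 0.44 (0.035) and P4ha2, named after its value was seen, of 0.36 (0.041). With library totals all 4 calls were lost, with adjusted p of 0.0762 for P4ha1, 0.218 for Plod1, 0.178 for P3h2 and 0.22 for P4ha2. Those of P3h2 and P4ha2 were lost with upper-quartile factors too (0.0596 and 0.0593). That of P3h2 was lost without any 1 library, with adjusted p up to 0.08, and that of P4ha2 without any 1 library other than PBS 1, with adjusted p up to 0.108. The call of P4ha1 was lost without VEGF-C 1 (0.0525), VEGF-C 3 (0.0507), PBS 2 (0.0513) or PBS 3 (0.0541), and that of Plod1 without VEGF-C 1 (0.0658), VEGF-C 3 (0.0726) or PBS 3 (0.0531).

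Of 14 chaperone and export genes, Sec31a rose (7.14% of the list, against 7.05% of all genes). It encodes a coat protein of the vesicles that carry procollagen out of the endoplasmic reticulum, and had 12542 ± 401 normalized counts in VEGF-C and 8517 ± 886 in PBS hearts (log2 fold change 0.56, limma adjusted p = 0.00268). Creb3l2 and Creb3l1, transcription factors of secretory capacity, had log2 fold changes of 0.43 and 0.31 (0.0759 and 0.0896). Creb3l2 passed without PBS 4 (0.0485) and Creb3l1 without PBS 1 (0.0327). Of 8 genes that trim procollagen ends, 1 fell (12.5%, against 8.61% of all genes). It was Adamts14, which removes the amino-terminal propeptide, with 276 ± 27.4 normalized counts in VEGF-C hearts, against 467 ± 18.6 in PBS hearts (log2 fold change -0.76, limma adjusted p = 0.00251). Bmp1, which removes the other end, had -0.35 (0.075), and Tll2, a related protease, 1.06 (0.124). Both passed without PBS 1 (0.00312 for Bmp1 and 0.0346 for Tll2), and Bmp1 with library totals (0.0149).

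None of the 5 crosslinking lysyl oxidase genes and none of the 14 genes of fibril assembly passed in limma, where 0 of either list had an unadjusted p under 0.05 and limma-voom called 0. The smallest p in these lists were those of Loxl1 (log2 fold change 0.27), Loxl4 (-0.24) and Loxl3 (-0.13), and of the small proteoglycans Aspn (0.71), Prelp (0.35) and Bgn (0.33). Of 16 partners of type IV collagen in basement membranes, 1 fell (6.25%, against 8.61% of all genes). It was Agrn, which encodes the proteoglycan agrin (log2 fold change -0.40, limma adjusted p = 0.0278). The laminin gene Lamc3 had -1.11 (0.0577). Lamc3 passed without VEGF-C 2 (0.0186), with library totals (0.0288) and in limma-voom (0.0411). The call of Agrn was lost without VEGF-C 1 (0.0571), VEGF-C 2 (0.053), VEGF-C 3 (0.0729), VEGF-C 4 (0.0636), PBS 2 (0.062) or PBS 4 (0.069).

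Of 12 collagen receptors, 2 rose (16.7%, against 7.05% of all genes). Adgrg1 encodes an adhesion receptor that binds type III collagen and had 6782 ± 782 normalized counts in VEGF-C and 4479 ± 184 in PBS hearts (log2 fold change 0.59, limma adjusted p = 0.00243). Antxr2 encodes an anthrax toxin receptor that binds matrix collagen and had a log2 fold change of 0.40 (0.00817). Itgb1, the shared chain of the collagen-binding integrins, had 0.26 (0.0675). Of 10 genes of collagen breakdown, the protease inhibitors Timp4 and Timp3 rose, with log2 fold changes of 1.47 (0.00963) and 0.52 (0.0144), and the gelatinase Mmp9 fell, with -0.91 (0.0149). With library totals the calls of Antxr2 and Timp3 were lost (0.0715 and 0.0717).

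Markers of the cells that could supply collagen RNA were set beside these results. The 9 fibroblast identity markers summed to 114520 to 131636 normalized counts in VEGF-C hearts and 110586 to 136424 in PBS hearts. Of the 10 markers of activated fibroblasts, 1 rose (Thbs4, log2 fold change 0.38, adjusted p = 0.0453), or 10.0% against 7.05% of all genes. The 10 markers summed to 183800 to 231234 in VEGF-C hearts and 99557 to 270881 in PBS hearts. Both ranges overlapped. The call of Thbs4 was lost without any 1 library, with adjusted p up to 0.102, with library totals (0.248) and with upper-quartile factors (0.089). Of the 6 Schwann cell markers, 2 fell, Mbp among them, or 33.3% against 8.61% of all genes, and limma-voom also called 2. They summed to 1373 to 1630 in VEGF-C hearts and 1756 to 2049 in PBS hearts, without overlap. The 6 mesothelial markers summed to 2936 to 12942 in VEGF-C hearts and 5203 to 16805 in PBS hearts, with a median log2 fold change of -0.72. The 6 adipocyte markers summed to 161 to 8642 in VEGF-C hearts and 5881 to 13642 in PBS hearts, with a median log2 fold change of -2.69. No measured marker was at 0 in all libraries, and the part of these cells in the collagen results was not tested.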

How the data were processed

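RNA from heart tissue of 8 mice was sequenced as stranded mRNA libraries, per the labels. The submitters' processing notes name the build GRCm39 and, in no stated order or role, DESeq2 1.38.3, featureCounts, Subread 2.0.1, STAR 2.7.10a and Trim Galore 0.6.10. The authors deposited 1 table with log2 values per gene and library, with log2 fold changes and adjusted p-values of their own comparison. The deposited log2 values were found to be log2(x + 4), with x the reads of a gene over the median-of-ratios factor of its library: undoing this gave whole reads within 0.01 reads for 100% of the values. The table has 56941 rows, of which 38106 carry no values; the rule that left them empty was not stated.

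The deposited log2 values of 18835 genes were fitted with limma 3.58.1 in R 4.3.3 (group means of 4 and 4 libraries, trended prior variance, 6 residual degrees of freedom), with Benjamini-Hochberg adjustment over all genes and a threshold of 0.05. Adjusted p-values given without a tool are from this fit, or from the same fit under the alternative named. Fold changes are on the log2(x + 4) scale, which understates the change of low genes. Means ± SD are of x, that is, normalized counts. A value per length is the recovered reads of a gene divided by the length of its principal transcript in GENCODE M21. These values were then scaled to the same total in each library. A length was found for 18472 genes (98.1%). The 3 chain ratios were tested by exact permutation of the 8 libraries, two-sided. The floor for a library at 0 is 3 reads and covers counting error only. The fit was checked on simulated counts that had the same spread beyond counting error for every gene. Changes were set only in genes with a mean of at least 50 normalized counts. Changes in genes with a larger spread or a lower level were not covered by that check.

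Values in every library are given for members past the threshold and for 12 abundant chains, whatever their test; Col5a3, Col11a1, Col4a6, Col6a5 and others were added after their values were seen. Of each pathway list the 3 genes with the smallest p are named, except that some genes are not reported here. Members and lists were chosen with earlier results of these data known. List entries without values were Kera, Gp6, Mmp1a, Matn1, Myh1, Myh4 and Mybpc1. Alternatives were other scaling factors (TMM, library totals, upper quartile), added constants of 1 and 16, a minimum mean of 50 normalized counts, robust variances, limma-voom on the recovered reads, and leaving out each library.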

Additional observations from a re-analysis of the deposited data

Results flagged for a closer look

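A library far from the other 3 of its group was found for 9 of 90 groups checked, and chance gives about 1 in 20, or 4.5. PBS 1 was such a library in 3 of them, with log2(x + 4) values of 4.45 for Col4a6, 2.0 for Col9a1 and 11.91 for Col18a1, each below the other PBS hearts. PBS 3 was low for Col4a2, at 15.19, and for Col5a1, at 14.42. PBS 4 was high for Col12a1, at 10.87. Among VEGF-C hearts, VEGF-C 2 was low for Col5a3, at 10.79, and VEGF-C 3 was high for Col22a1, at 6.94, and for Col9a2, at 7.46.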

How the results depend on the processing

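The call and direction of Col1a1 held under every alternative run, with log2 fold changes of 0.50 to 0.76 and adjusted p up to 0.0319. Col11a2, Col27a1, Col20a1, Col7a1, Col6a4 and Col6a6 also kept their calls under every alternative run, and Col24a1 did not, as given with its values. The number of collagen genes past the threshold was 7 to 12 over all alternatives, and that of fibrillar ones 3 to 5. Over all genes, 1684 to 2906 passed when single libraries were left out, the fewest without VEGF-C 3, against 2949 with all 8. Basement membrane collagens past the threshold numbered 1 in place of 0 with library totals and with upper-quartile factors, and 0 to 1 when single libraries were left out. The other collagens past the threshold numbered 4 to 7, and the pathway partners 7 to 18, when single libraries were left out; the cause was not tested.

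Small log2 fold changes changed sign. With library totals they were -0.17 for Col11a1, -0.016 for Col14a1, -0.037 for Col18a1, -0.13 for Col3a1, -0.16 for Col4a3, -0.054 for Col5a1, -0.078 for Col6a1 and -0.090 for Col6a3. Upper-quartile factors gave -0.033 for Col11a1 and -0.025 for Col4a3, and limma-voom gave -0.0013 for Col11a1. Leaving out single libraries gave -0.43 to 0.25 for Col11a1, -0.12 to 0.35 for Col14a1, -0.0047 to 0.22 for Col18a1, -0.46 to 0.078 for Col25a1, -0.18 to 0.10 for Col28a1, -1.24 to 0.53 for Col2a1, -0.075 to 0.13 for Col3a1, -0.17 to 0.19 for Col4a3, -0.34 to 0.16 for Col4a4, -0.12 to 0.037 for Col4a5, -0.17 to 0.065 for Col5a2, -0.013 to 0.24 for Col6a1, -0.017 to 0.28 for Col6a3, -0.18 to 0.51 for Col8a2 and -0.15 to 0.62 for Col9a2. The exact permutation differences of the chain ratios were 0.40 to 0.50 for Col1a1 to Col1a2, 0.57 to 0.69 for Col1a1 to Col3a1 and -0.01 to 0.05 for Col4a1 to Col4a2, where 4 against 3 libraries cannot reach 0.05.

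The planned edgeR count test was not run; limma-voom on the recovered reads was run. No paired analysis was possible because no animal number of the labels occurs in both groups and the column numbers tie to no animal. Col9a1 had 0 reads in PBS 1, a library of 76.0 M reads, and the cause was not tested; low depth limits most the 4 collagen genes with a mean under 50 normalized counts, which the minimum mean left out.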

Other observations

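Markers of other cells of the heart, some of which also make collagen, gave these values. Over all 18835 genes, 7.05% rose and 8.61% fell in limma. Of all genes, 6086 had an unadjusted p under 0.05, and limma-voom called 2784. Of 8 cardiomyocyte markers, Actn2, a Z-disc protein, rose in limma, 4 had an unadjusted p under 0.05 and limma-voom called 3. Of the 8, 7 had a positive log2 fold change, and the median was 0.38. For 3 of the 8 the groups did not overlap, with VEGF-C hearts higher. Of all genes, 11.5% had no overlap in that direction. Counted per transcript length and scaled to the same total in each library, the list summed to 36391 to 42941 in VEGF-C hearts. In PBS hearts this sum was 37206 to 41805, so that the ranges overlapped. Of 7 lymphatic endothelial markers Flt4, the receptor of VEGF-C, passed in limma (log2 fold change 0.40, adjusted p = 0.0481), with groups that overlapped, and limma-voom called 0 of the 7 (0.0519 for Flt4). The call of Flt4 was also lost with TMM factors (0.051), library totals (0.267) and upper-quartile factors (0.0968), and without VEGF-C 1 (0.118), VEGF-C 2 (0.109), VEGF-C 3 (0.0726), PBS 1 (0.0858), PBS 2 (0.0967) or PBS 4 (0.0768). Of 8 blood endothelial markers Egfl7, a secreted vessel protein, fell, and the list summed to 124207 to 145275 normalized counts in VEGF-C hearts and 127378 to 139104 in PBS hearts. Those ranges overlapped. Per transcript length, scaled to the same total, the list summed to 2089 to 2258 in VEGF-C and 2368 to 2725 in PBS hearts, without overlap. Of 6 smooth muscle markers Smtn, a protein of contractile smooth muscle, fell (log2 fold change -0.54, adjusted p = 0.0272; lost without VEGF-C 1, 3 or 4 or PBS 2 or 4, with adjusted p up to 0.0679), and the list summed to 60627 to 69487 normalized counts in VEGF-C hearts and 46596 to 88462 in PBS hearts. None of 8 pericyte markers passed in limma, with 0 at an unadjusted p under 0.05 and 0 called by limma-voom, and the list summed to 35800 to 58999 normalized counts in VEGF-C hearts and 27282 to 48759 in PBS hearts. Macrophage markers summed to 174293 to 237979 normalized counts in VEGF-C hearts and 168107 to 267331 in PBS hearts; 0 of 8 passed in limma, 2 had an unadjusted p under 0.05 and limma-voom called 0. Of 9 fibroblast identity markers 0 passed in limma, 2 had an unadjusted p under 0.05 and limma-voom called 1. Of 6 adipocyte markers 0 passed in limma, 4 had an unadjusted p under 0.05 and limma-voom called 1. Of 6 mesothelial markers and of 5 markers of cartilage or valve tissue, 0 passed in limma, 0 had an unadjusted p under 0.05 and limma-voom called 0. Cartilage or valve markers summed to 1396 to 1665 normalized counts in VEGF-C hearts and 1110 to 1719 in PBS hearts. Of 3 skeletal muscle markers 0 passed in limma, 1 had an unadjusted p under 0.05 and limma-voom called 0. The part of these cells in the collagen values was not tested.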
